A study of Mus musculus with 20 samples.

Results

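Malat1, Neat1, Kcnq1ot1, Airn, Rian and Mirg, long non-coding RNAs that remain largely in the nucleus, were measured in whole hearts of mouse embryos at E13.5. The 6 RNAs were chosen by gene symbol, and each matched 1 of the 48795 genes in the deposited table of normalised values. The hearts came from 4 groups of 5 libraries: Dp3Tyb embryos, which carry the duplication Dp(16Mir802-Zbtb21)3TybEmcf of mouse chromosome 16, wild-type (WT) littermates of Dp3Tyb, Ts1Rhr embryos, which carry the duplication Dp(16Cbr1-Fam3b)1Rhr, and WT littermates of Ts1Rhr. Both strains had been bred onto the C57BL/6J background, and each strain with its littermates is called a cohort here. All Dp3Tyb hearts are labelled as having heart defects, as are Ts1Rhr replicates 1 and 2, whereas Ts1Rhr replicates 3, 4 and 5 are labelled as without heart defects; the study describes Ts1Rhr embryos as free of such defects, so what the label of replicates 1 and 2 refers to is uncertain. The libraries were made from poly(A)-selected RNA of whole snap-frozen hearts, so no nuclear fraction was prepared and the location of an RNA in the cell is background knowledge here. The questions were whether the level of these RNAs differed between the genotypes, and whether it moved with the share of reads from chromosome M, the mitochondrial genome, and with the depth of each library.

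Messenger RNAs are exported to the cytoplasm, where the transcripts of mitochondria also reside, whereas the RNAs described here stay at or near the chromatin they were transcribed from or in nuclear bodies. Malat1 is concentrated in nuclear speckles, which hold splicing factors, and Neat1 is the scaffold on which paraspeckles form. Kcnq1ot1 and Airn are imprinted antisense transcripts of the paternal chromosome that silence neighbouring genes in cis, whereas Rian and Mirg are imprinted maternally expressed transcripts of the Dlk1-Dio3 region and are hosts of small nucleolar RNAs and of microRNAs.

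Positions are those of the GENCODE vM39 annotation of GRCm39, because no GENCODE annotation of the files' own build, GRCm38, was used here. Malat1 lies on the minus strand of chr19:5845717-5853602 and Neat1 beside it on the minus strand of chr19:5874736-5897132. Kcnq1ot1 spans chr7:142731402-142850327 on the minus strand, antisense to Kcnq1, and Airn spans chr17:12960198-13079299 on the plus strand, antisense to Igf2r. Rian at chr12:109570242-109628150 and Mirg at chr12:109696198-109715898 lie on the plus strand of the same imprinted region. All 6 are annotated as lncRNA genes. In RefSeq on GRCm38.p6 the span of Rian held 3 microRNA hairpins, that of Mirg held 10 and those of the other RNAs held 0. Because oligo(dT) can capture an RNA at internal runs of adenosine as well as at a tail, the longest such run in the longest GENCODE transcript of 4 of the RNAs is shown with 12 bases on either side and the run itself in capitals.
Malat1: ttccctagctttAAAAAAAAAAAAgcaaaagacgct
Kcnq1ot1: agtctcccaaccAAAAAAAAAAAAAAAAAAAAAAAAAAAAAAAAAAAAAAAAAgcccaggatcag
Airn: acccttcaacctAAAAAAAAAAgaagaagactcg
Rian: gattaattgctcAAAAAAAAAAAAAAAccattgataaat
The Malat1 run had 12 bases and ended 299 bases before the annotated 3′ end of a transcript of 7886 bases. Kcnq1ot1, with a transcript of 93092 bases, held the longest run, 41 bases, and 10 runs of at least 10 bases in all. The run of Rian had 15 bases and that of Airn had 10, whereas the longest runs of Neat1 and Mirg had 7 and 5 bases. A run of at least 10 bases occurred in 18.5% of the longest transcripts of at least 1000 bases of all genes and in 43.2% of those of at least 7000 bases, the range of Malat1 and Rian, and in 36.8% of those of at least 20000 bases, the range of Kcnq1ot1 and Neat1. The longest annotated transcript of Airn, from which its run was taken, has 1733 bases and so covers little of the RNA's span, and that of Mirg has 3822 bases. Where priming took place was not tested.

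The reads recovered per library numbered 6600839 to 19634514, and 4.85 to 19.5% of them came from chromosome M. The shares fell into 2 sets with no library between 7.17 and 10.5%: 13 libraries lay below this range, and 7 above it, namely WT replicate 5 of the Dp3Tyb cohort, Dp3Tyb replicate 5, WT replicates 1, 2 and 4 of the Ts1Rhr cohort and Ts1Rhr replicates 1 and 2. The 2 Ts1Rhr libraries above it are the 2 labelled with heart defects, so in Ts1Rhr the label and the share cannot be told apart. The mean share was 7.71% in Dp3Tyb and 8.10% in WT (exact permutation test over 252 splits, two-sided, p = 0.976), and 8.45% in Ts1Rhr and 10.5% in WT (p = 0.5 in the same exact test). The 8 cardiomyocyte markers were detected, as fits the labelled tissue. Of the genes duplicated in both strains 6 were chosen as a check: Dyrk1a, Hlcs, Ttc3, Brwd1, Hmgn1 and Bace2. These 6 had higher means in the mutants, with adjusted p under 0.05 for 3 of them in Dp3Tyb and 4 in Ts1Rhr (limma). Because the hearts were measured in bulk, fewer cells of a type and less RNA per cell cannot be told apart in any result here.

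Malat1 was the most abundant of the 6 RNAs and together they took 0.0810 to 0.109% of the nuclear-encoded reads, those outside chromosome M, in the 13 libraries with the lower chromosome M share and 0.111 to 0.132% in the 7 others. The median values of Rian and Neat1 were lower in the 7 than in the 13, so the sum does not describe each RNA. Per kilobase of annotated exon, the mean level over all 20 libraries was 1088 for Malat1, 148 for Rian, 52.0 for Airn, 20.1 for Mirg, 14.3 for Neat1 and 6.28 for Kcnq1ot1, in normalised reads. The ranges of Malat1, Rian, Airn and Mirg did not overlap in this order. The ranges of Mirg and Neat1 overlapped, with Mirg higher in 17 of 20 libraries, and so did those of Neat1 and Kcnq1ot1, with Neat1 higher in 18 of 20. These levels per length depend on the annotated exons, which hold 93852 bases for Kcnq1ot1 but 10545 of the 119102 bases that Airn spans, and both are known as largely unspliced RNAs. The libraries held 69 to 319 reads of Mirg, 95 to 548 of Neat1, 288 to 694 of Airn, 293 to 1237 of Kcnq1ot1, 1261 to 8471 of Rian and 3876 to 11077 of Malat1, so counting error was largest for Mirg.

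Malat1 stood at normalised values of 6987, 8434, 6725, 8012 and 11380 in replicates 1 to 5 of the WT littermates of Dp3Tyb, and at 6637, 6743, 6326, 6832 and 12762 in Dp3Tyb. In each of these groups replicate 5, with the highest chromosome M share of its group, was above the other 4 replicates, and the groups overlapped. In the Ts1Rhr cohort the values of Malat1 were 11231, 10388, 8922, 11851 and 7588 in WT and 12296, 9359, 5655, 7057 and 6459.7 in Ts1Rhr. Ts1Rhr replicates 1 and 2 stood with the higher WT values, and replicates 3, 4 and 5 stood below every WT library.

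Neat1 was the steadiest RNA of the nuclear bodies, with values of 284, 302, 347, 317 and 279 in WT and 306, 322, 298, 356 and 238 in Dp3Tyb. In the Ts1Rhr cohort Neat1 stood at 271, 342, 303, 335 and 404 in WT and at 309, 305, 353, 329.9 and 400.5 in Ts1Rhr. The groups overlapped in both cohorts, and the lowest value of Neat1, that of Dp3Tyb replicate 5, came from the library with the highest value of Malat1.

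Kcnq1ot1 varied most, by 6.73-fold between its lowest and its highest library. Its values were 357, 376, 391, 352 and 860.3 in WT littermates of Dp3Tyb and 403, 264, 310.2, 436 and 678 in Dp3Tyb. In the Ts1Rhr cohort Kcnq1ot1 stood at 1336, 559, 468, 1780 and 303 in WT and at 1222, 747, 266, 339 and 330.4 in Ts1Rhr. The high values were those of the 7 libraries with over 10% of reads from chromosome M, in mutants and in WT alike.

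Airn, the other imprinted antisense RNA, was high in the same 7 libraries. It stood at 425, 489.6, 464, 438 and 846 in WT and at 436, 424, 420.4, 383 and 685 in Dp3Tyb. In the Ts1Rhr cohort its values were 646, 666, 569, 884 and 505 in WT and 653, 677, 467, 455 and 434 in Ts1Rhr. All 4 groups contained both higher and lower libraries and overlapped within each cohort.

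Rian differed by 1.66-fold at most among the 20 libraries, with values of 5822, 4102, 4886, 3921 and 3702 in WT and 5084, 4732, 4857, 6131 and 4523 in Dp3Tyb. In the Ts1Rhr cohort Rian stood at 4859, 4330, 4717, 4048 and 4664 in WT and at 4261, 4839, 4400.3, 5143 and 5956 in Ts1Rhr. The high and low libraries of Rian were not those of Malat1, Kcnq1ot1 and Airn, and the lowest value belonged to the library with the highest chromosome M share. Mirg stood at 243, 122, 179, 154 and 203 in WT and at 170.3, 166, 184, 199 and 250.4 in Dp3Tyb. In the Ts1Rhr cohort the values of Mirg were 226, 197, 177, 266 and 169 in WT and 166, 242, 151, 189.9 and 233 in Ts1Rhr. Mutant and WT values of Rian and of Mirg overlapped in both cohorts.

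**Figure D1:**
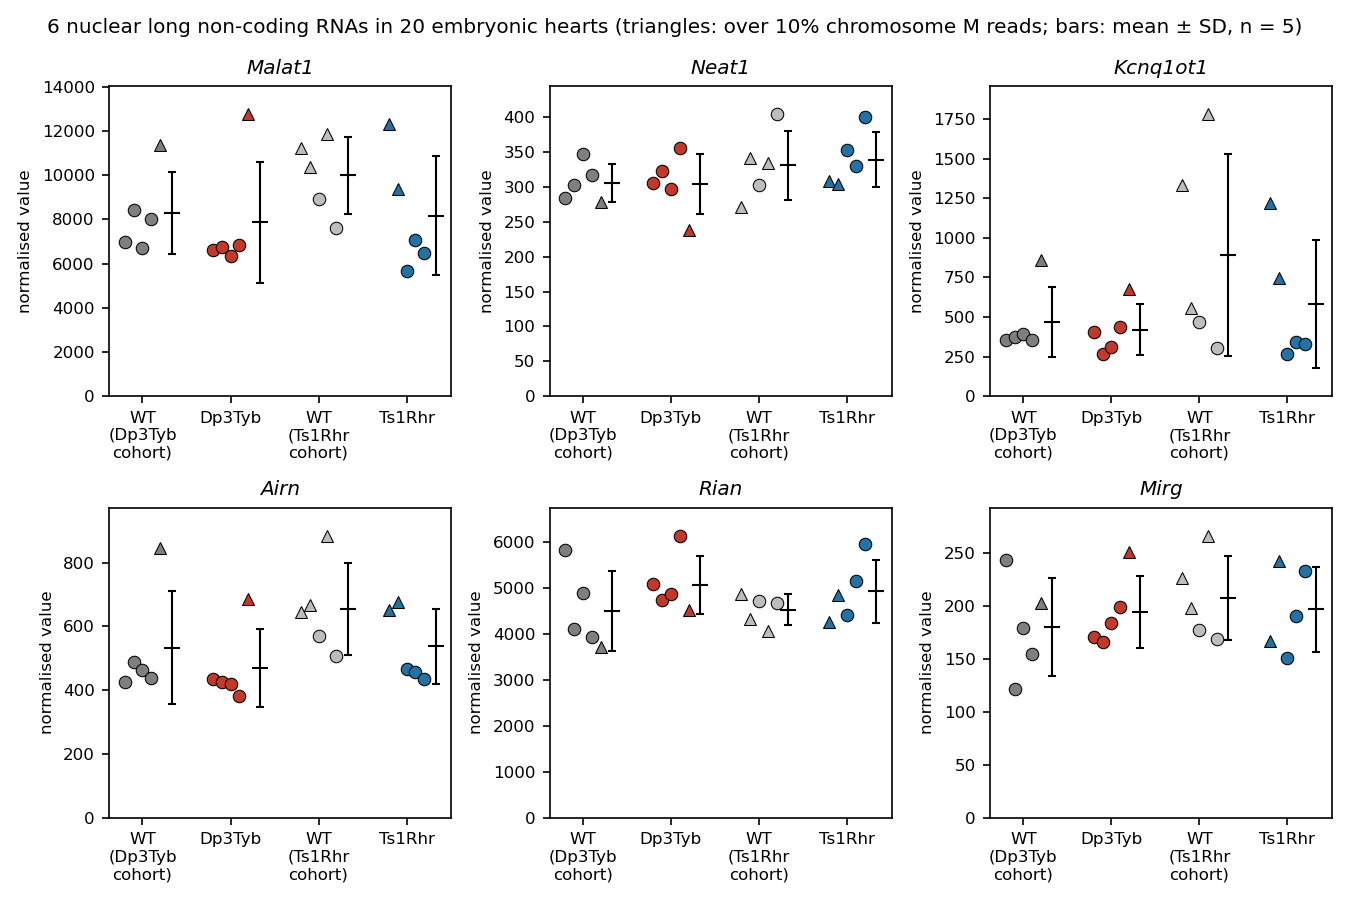
Normalised value of each of the 6 RNAs (y axis, from 0) in the 4 groups (x axis), with 1 point per library, triangles for libraries with over 10% of chromosome M reads and bars for the mean ± SD of each group (n = 5). Malat1, Kcnq1ot1 and Airn show isolated high libraries within groups, and the mutant and WT points overlap in all 6 panels.

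The level of the 6 RNAs was first compared between the genotypes. In limma on log2(normalised value + 1), with Benjamini-Hochberg adjustment over all genes tested, 0 of the 6 RNAs passed an adjusted p of 0.05 in Dp3Tyb against WT, where 0.0542% of 14763 genes passed, and 0 of 6 in Ts1Rhr against WT, where 0.0269% of 14867 genes passed. Without adjustment 0 of the 6 had p under 0.05 in either comparison, and DESeq2 and edgeR also called 0 of 6. Malat1 or Airn, or both, had an unadjusted p under 0.05 in some alternative limma fits, each time with a lower level in the mutants and without passing adjustment: 1 RNA in Dp3Tyb and 2 in Ts1Rhr with array weights, 1 and 1 with the chromosome M share as a term, and 1 and 2 without the libraries of over 10% share. Groups without overlap occurred for 0 of the 6 RNAs, against 0.975% of all genes for Dp3Tyb and 1.12% for Ts1Rhr.

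In Dp3Tyb the mean of Rian was 4487 ± 870 in WT and 5065 ± 629 in Dp3Tyb (mean ± SD, n = 5), a log2 difference of 0.19 ± 0.13 (SE; limma adjusted p = 0.99996). Malat1 differed by -0.11 ± 0.20, Kcnq1ot1 by -0.14 ± 0.29, Airn by -0.16 ± 0.21, Neat1 by -0.02 ± 0.11 and Mirg by 0.13 ± 0.18 on the log2 scale. Each difference was within 1.5 times its standard error. Leaving out single libraries, that of Rian ranged from 0.12 to 0.29, and moved by over 1.5 times without Dp3Tyb replicate 4 or WT replicate 1 or 5. The directions of the other 5 RNAs depended on single libraries: Malat1 (0.01), Kcnq1ot1 (0.10) and Airn (0.02) turned without WT replicate 5, Kcnq1ot1 (0.006) also without Dp3Tyb replicate 2, Neat1 without WT replicate 3 (0.03) or Dp3Tyb replicate 5 (0.07), and Mirg without WT replicate 2 (-0.003). In Ts1Rhr the means of Kcnq1ot1 were 889 ± 637 in WT and 581 ± 406 in Ts1Rhr (mean ± SD, n = 5), a log2 difference of -0.56 ± 0.55 (SE; limma adjusted p = 0.799). This value of Kcnq1ot1 moved from -0.23 without WT replicate 4 to -0.89 without Ts1Rhr replicate 1, and by over 1.5 times also without WT replicate 1 or 5 or Ts1Rhr replicate 3. Malat1 differed by -0.33 ± 0.20, Airn by -0.28 ± 0.16, Rian by 0.11 ± 0.09, Neat1 by 0.04 ± 0.11 and Mirg by -0.08 ± 0.16. Leaving out single libraries gave -0.37 to -0.17 for Airn, lowest in size without WT replicate 4, -0.49 to -0.21 for Malat1, lowest in size without Ts1Rhr replicate 3, and 0.04 to 0.16 for Rian, lowest without Ts1Rhr replicate 5. Neat1 turned without WT replicate 1 (-0.03) or Ts1Rhr replicate 5 (-0.02), and Mirg without WT replicate 4 (0.02) or Ts1Rhr replicate 3 (0.009). With the chromosome M share as a further term in the fit, the differences in Ts1Rhr were -0.07 ± 0.24 for Kcnq1ot1, -0.16 ± 0.10 for Malat1 and -0.13 ± 0.06 for Airn, and 0 of the 6 RNAs and 25 of 14867 genes were called. Without the 7 libraries over 10%, which leaves 3 Ts1Rhr and 2 WT libraries in that cohort, they were -0.28 ± 0.19, -0.37 ± 0.11 and -0.25 ± 0.10. That fit called 0 of 13929 genes (limma, 496 at an unadjusted p under 0.05), the duplicated genes included, so the missing calls say nothing about these RNAs. The difference between the effects of the 2 duplications was largest for Kcnq1ot1, at 0.42 on the log2 scale, but ranged from 0.09 without WT replicate 4 of the Ts1Rhr cohort to 0.75 without Ts1Rhr replicate 1. In all, 0 of the 6 RNAs passed its test, against 0.013% of 15348 genes.

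The level of each RNA was next set against the chromosome M share of its library. In Malat1, Kcnq1ot1 and Airn every one of the 7 libraries over 10% stood above every one of the 13 others. Malat1 ranged from 5655 to 8922 in the 13 libraries, with a median of 6832, and from 9359 to 12762 in the 7, with a median of 11380, so the medians differed by 1.67-fold. Kcnq1ot1 ranged from 264 to 468 (median 352) in the 13 and from 559 to 1780 (median 860.3) in the 7, a ratio of medians of 2.44. Airn ranged from 383 to 569 (median 438) in the 13 and from 646 to 884 (median 677) in the 7, a ratio of 1.55. The other RNAs overlapped between the 2 sets of libraries. Mirg had medians of 177 and 226, and 2 of the 7 libraries were above all 13. Neat1 had medians of 322 and 305, with 3 of the 7 libraries below all 13, and Rian had medians of 4857 and 4330, with 1 of the 7 below all 13. These sets follow a gap seen in the measured shares and were not compared by a test. How many of all genes separate fully between these sets was not counted. Whether the separation of Malat1, Kcnq1ot1 and Airn is unusual among genes therefore cannot be judged.

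**Figure D2:**
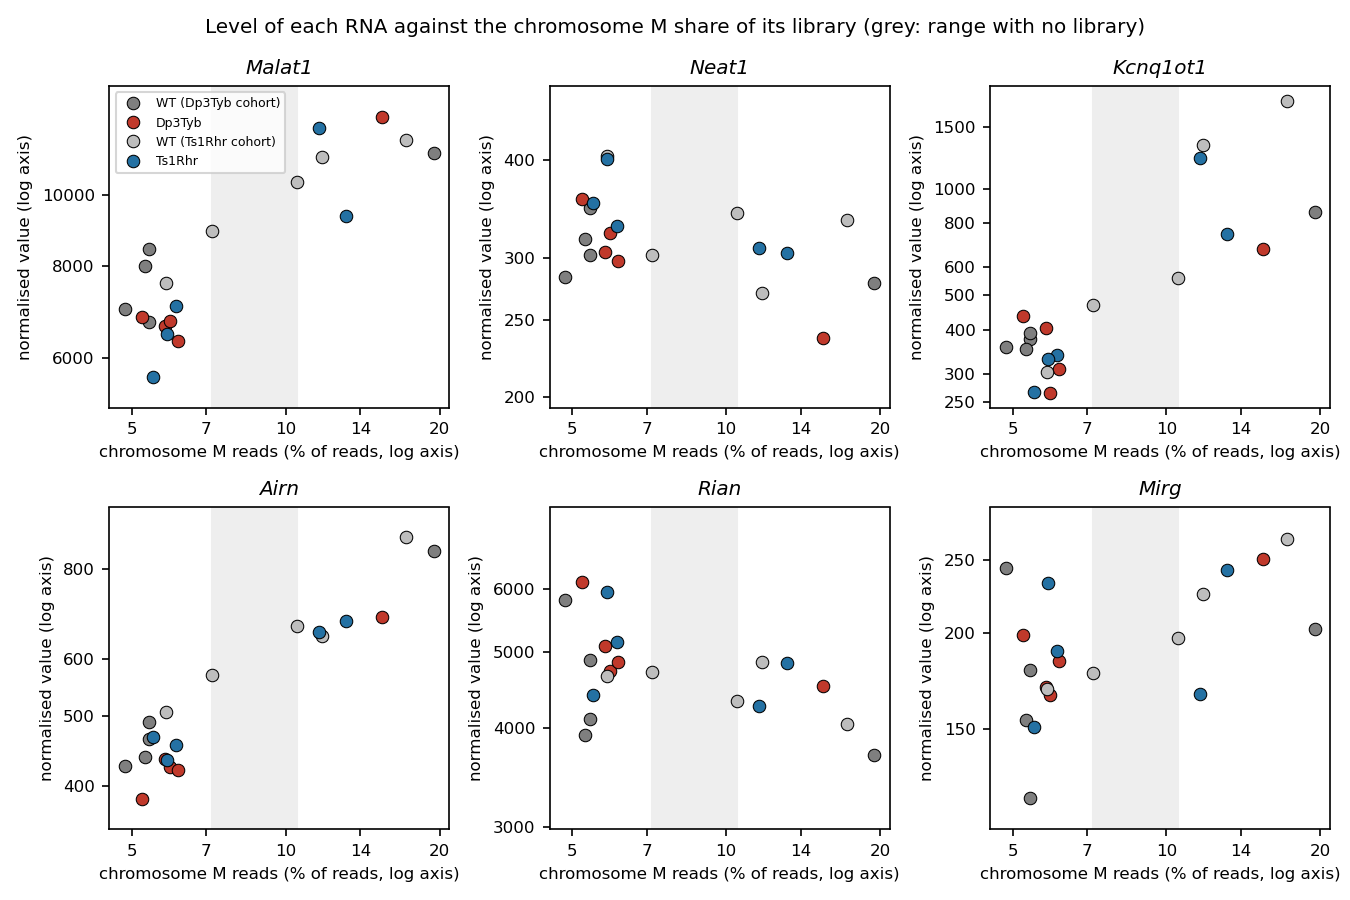
Normalised value of each RNA (y axis, log scale) against the percentage of reads from chromosome M (x axis, log scale), with 1 point per library, the group given by its colour and the empty range of shares from 7.17 to 10.5% shaded grey. The 7 points right of the grey band lie above all 13 points left of it for Malat1, Kcnq1ot1 and Airn, and overlap with them for Neat1, Rian and Mirg. The share of all genes that separate in this way was not counted.

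In a limma fit of the level on the log2 share with a term for each group, all 6 RNAs had a slope with an adjusted p under 0.05, but so did 61.1% of the 15348 genes tested, 29.6% with a rising and 31.5% with a falling slope. Among the 10896 genes with a mean value of at least 100, as all 6 RNAs have, 71.2% passed. The slope of Kcnq1ot1 was 0.99 ± 0.16 on the log2 scale per doubling of the share (SE; limma adjusted p = 5.44e-05), which is 1.99-fold, and 0.88% of all genes had a higher slope. The slope of Airn was 0.49 ± 0.03 (limma adjusted p = 8.08e-13), with 4.91% of genes higher, and that of Malat1 was 0.48 ± 0.06 (limma adjusted p = 1.28e-06), with 5.19% higher. These 3 RNAs thus stood among the genes with the steepest rise. Mirg rose by 0.22 ± 0.09 (limma adjusted p = 0.0336), with 19.2% of genes higher. Neat1 fell by 0.17 per doubling (SE 0.05, limma adjusted p = 0.00602), and Rian fell by 0.16 (SE 0.06, limma adjusted p = 0.0232), slopes that 70.4 and 68.9% of genes exceeded. The 2 RNAs of nuclear bodies that are neighbours on chromosome 19 thus had slopes of opposite sign.

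The rise of Airn, Malat1 and Kcnq1ot1 was present in each cohort on its own. Within the Dp3Tyb cohort, in which the 2 libraries over 10% carry the slope, it was 0.49 ± 0.04 for Airn, 0.44 ± 0.07 for Malat1 and 0.64 ± 0.10 for Kcnq1ot1. Within the Ts1Rhr cohort it was 0.49 ± 0.05, 0.54 ± 0.09 and 1.54 ± 0.21 in the same order, all with adjusted p under 0.05 in limma. Of all genes tested, 57.4% passed within the first cohort and 37.9% within the second. The slope of Kcnq1ot1 was lower in the Dp3Tyb cohort by 0.91 ± 0.24 (SE; limma unadjusted p = 0.00171), a difference that did not pass adjustment over all genes (adjusted p = 0.25), and 0 of the 6 RNAs passed that test, against 0.00652% of 15348 genes. Neat1 fell by 0.16 in the Dp3Tyb cohort (limma adjusted p = 0.0269) and had a slope of -0.18 in the Ts1Rhr cohort (adjusted p = 0.114). Rian and Mirg passed the threshold in neither cohort, with slopes of -0.18 and -0.12 for Rian and 0.18 and 0.28 for Mirg.

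The slopes were then fitted within the 2 sets of libraries. In the 13 libraries below the gap, whose shares differ little, 0 of the 6 RNAs and 0.02% of 14994 genes had a slope past the threshold in limma (adjusted p under 0.05), with 1 of the 6 RNAs at an unadjusted p under 0.05. The slopes there were 0.56 ± 0.25 for Airn, 0.60 ± 0.33 for Malat1, 0.53 ± 0.74 for Kcnq1ot1, -0.75 ± 0.39 for Neat1, -0.69 ± 0.57 for Rian and -0.61 ± 0.80 for Mirg. In the 7 libraries above the gap, Airn rose by 0.49 ± 0.12 (SE; limma adjusted p = 0.00901), while 26.7% of 14448 genes passed. Malat1 at 0.15 ± 0.15, Kcnq1ot1 at 0.40 ± 0.78, Mirg at 0.31 ± 0.23, Neat1 at -0.16 ± 0.19 and Rian at -0.27 ± 0.12 did not pass. The slope of Airn thus had a similar size in all libraries, in each cohort and in both sets, between 0.49 and 0.56, and no other RNA passed for the share within a set. For depth, 0 of the 6 RNAs and 0 of 14994 genes passed in the 13 libraries (limma, 1 RNA and 484 genes at an unadjusted p under 0.05). In the 7 libraries 2 of 6 passed, against 17.7% of 14448 genes: Airn fell by 0.34 per doubling of the reads (SE 0.09, limma adjusted p = 0.0242) and Rian rose by 0.27 ± 0.07 (limma adjusted p = 0.0212).

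The size of a slope also depends on the scaling. With each library scaled to its total of nuclear-encoded reads, the median slope of all genes moved from -0.02 to -0.11, and 63.0% of genes passed, of which 2971 rose and 6779 fell, against 4540 and 4838 with the deposited scaling. Under that scaling Kcnq1ot1 rose by 0.90, Airn by 0.40 and Malat1 by 0.39, Neat1 fell by 0.26 and Rian by 0.25, and Mirg at 0.13 no longer passed (limma adjusted p = 0.219). Leaving out single libraries, Malat1, Kcnq1ot1, Airn and Neat1 kept their calls in all 20 fits. Rian lost its call without WT replicate 5 of the Dp3Tyb cohort (slope -0.15, limma adjusted p = 0.109). Mirg lost its call without any of Dp3Tyb replicate 5, Ts1Rhr replicates 2 and 3 and WT replicates 4 and 5 of the Ts1Rhr cohort, with slopes of 0.19 to 0.21 and limma adjusted p from 0.0577 to 0.114.

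**Figure D3:**
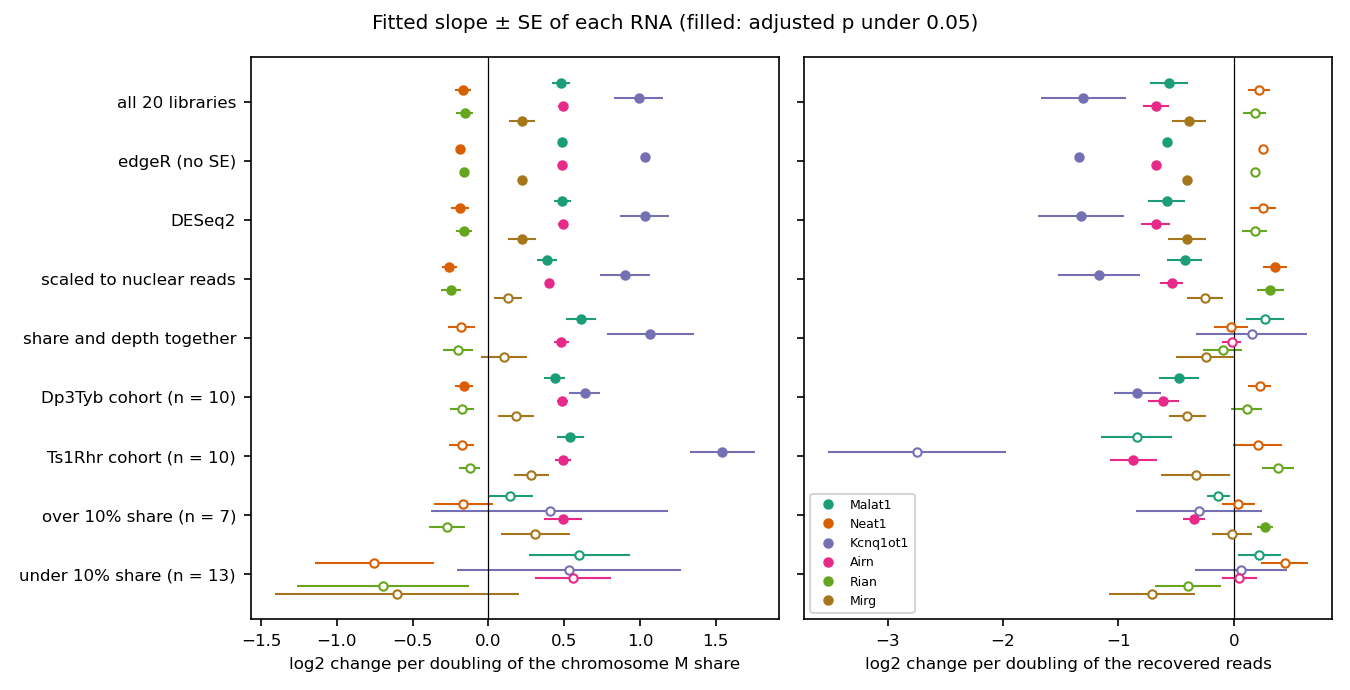
Fitted slope of each RNA on the chromosome M share (left) and on the recovered depth (right), in log2 units per doubling (x axis), under the fit over all 20 libraries and its alternatives, with bars for 1 standard error and filled symbols where the adjusted p is under 0.05. The share slope of Airn lies between 0.40 and 0.56 in every fit shown, and no depth slope passes the threshold once the share is in the fit.

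Over all 20 libraries the slopes on depth had the opposite sign to those on the share for each of the 6 RNAs. In limma Kcnq1ot1 fell by 1.30 on the log2 scale per doubling of the recovered reads (SE 0.37, adjusted p = 0.0074), Airn by 0.67 (SE 0.11, adjusted p = 0.00011), Malat1 by 0.56 (SE 0.17, adjusted p = 0.00869) and Mirg by 0.39 (SE 0.15, adjusted p = 0.0334). Thus 4 of 6 RNAs passed, against 52.0% of 15348 genes (25.1% falling) and 62.6% of those with a mean value of at least 100. Neat1 at 0.22 ± 0.10 (limma adjusted p = 0.0605) and Rian at 0.18 ± 0.10 (adjusted p = 0.148) did not pass, but both passed with the nuclear scaling, at 0.36 and 0.32, where Mirg did not and 54.5% of genes did. Mirg lost its call on depth without any of Dp3Tyb replicate 5, WT replicates 2 and 4 of that cohort and WT replicates 4 and 5 of the Ts1Rhr cohort (limma adjusted p 0.0512 to 0.0978). Neat1 passed without WT replicate 1, 3 or 4 of the Ts1Rhr cohort (0.0353 to 0.0481) and Rian without WT replicate 1 of the Dp3Tyb cohort (0.0221). With share and depth in the same limma fit, 0 of the 6 RNAs and 0 of 15348 genes had a depth slope past the threshold, with 0 RNAs and 1062 genes at an unadjusted p under 0.05. The share slopes in that fit were 1.07 ± 0.29 for Kcnq1ot1, 0.61 ± 0.10 for Malat1 and 0.48 ± 0.05 for Airn, each with a limma adjusted p under 0.05, where 36.7% of genes passed. Neat1 at -0.18 ± 0.09, Rian at -0.20 ± 0.10 and Mirg at 0.10 ± 0.15 did not pass there. Share and depth were themselves related over the 20 libraries of that fit (Pearson's r = -0.76, permutation p = 9e-05, Spearman's rho = -0.62, permutation p = 0.00457). The absence of depth calls there therefore does not show that depth has no part. Within the 7 libraries they were related by r (-0.86, exact permutation p = 0.00833, rho = -0.68, exact permutation p = 0.11), and their parts cannot be told apart. Within the 13 no relation was detected (r = 0.20, permutation p = 0.466, rho = -0.17, permutation p = 0.581).

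Correlations across samples were computed for the 12 pairs of an RNA with share or depth and for the 15 pairs of RNAs, with permutation tests and Benjamini-Hochberg adjustment within each family. Over all 20 libraries 12 of the 12 relations passed by r and 6 by rho, and 7 of the 15 pairs by r and 5 by rho. Because the shares fall into 2 sets, coefficients of the RNAs are given within the sets only. Within the 13 libraries 0 of the 12 relations with share or depth passed, by r or by rho. Within the 7 libraries 1 of 12 passed, that of Rian with depth (r = 0.90, exact permutation p = 0.00397, adjusted p = 0.0476; rho = 0.86, exact p = 0.0238, adjusted p = 0.205), and leaving out the 2 most extreme depths gave r = 0.55 over a narrower range of depths in 5 libraries, too few for an exact test to pass the adjustment.

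Among the 15 pairs of RNAs, Rian and Mirg, which share an imprinted region and are maternally expressed, moved together within the 13 libraries (r = 0.87, permutation p adjusted over 15 pairs 0.00225; rho = 0.90, adjusted p = 0.001). Without the 2 farthest libraries r was 0.96 over 11 libraries (permutation, adjusted p = 0.0006). Within the 7 libraries the pair had r = 0.25 and rho = 0.14 (exact permutation, adjusted p = 0.823 and 0.971). The difference between these coefficients was not tested. The 2 highest values of Mirg, 266 and 250.4, came from libraries with Rian values of 4048 and 4523, below the median of the 13. No other pair passed within either set.

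**Figure D4:**
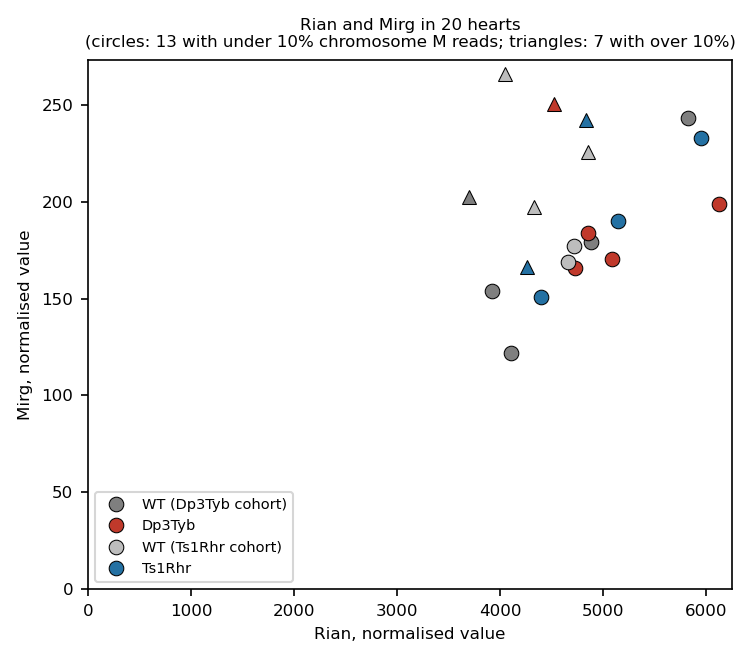
Normalised value of Mirg (y axis) against that of Rian (x axis) in the 20 libraries, with circles for the 13 libraries under 10% of chromosome M reads, triangles for the 7 over 10% and colours for the groups. The circles rise together from lower left to upper right, and the triangles lie mostly above them without such an order.

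The genes around each RNA were set beside it, with 29.6% of all genes rising and 31.5% falling in the same fit. Frmd8, next to Malat1 and Neat1, fell by 0.60 per doubling of the share (SE 0.04), and 3 of the 5 neighbours tested there fell and 0 rose in limma at an adjusted p of 0.05, the direction of Neat1 and not that of Malat1. In the Kcnq1 domain, whose imprinting in these hearts was not examined, 1 of the 7 genes tested rose and 4 fell. Cdkn1c, a cell cycle inhibitor that Kcnq1ot1 silences on the paternal chromosome, rose by 0.48 ± 0.04, and Osbpl5, a lipid transfer protein, fell by 0.41 (SE 0.04). Kcnq1, the potassium channel gene that Kcnq1ot1 overlaps on the opposite strand over 834 exonic bases, was among those that fell, by 0.28 (SE 0.07). Around Airn 0 of 3 genes passed, with a slope of -0.11 ± 0.05 for Igf2r, the receptor gene that Airn silences (limma adjusted p = 0.0813), but 1 of the 3 fell with DESeq2, without group terms and with the nuclear scaling. Under that scaling 5 of 5 neighbours of Malat1 and Neat1 and 7 of 8 genes of the Kcnq1 domain fell, with 43.8% of all genes falling. In the Dlk1-Dio3 region Meg3, a maternally expressed RNA encoded upstream of Rian, had a slope of 0.04 ± 0.06, Rtl1, a paternally expressed gene antisense to microRNAs of the region, had one of -0.49 ± 0.37, and Dlk1, also paternally expressed, had a slope of -0.35 ± 0.14 (limma adjusted p = 0.049), a call that edgeR did not make and that was lost within either cohort and with depth in the fit. Of these 3 genes 0 rose and 1 fell. Whether the counting used the strand of the reads is not given in the sources used here, so reads of Kcnq1ot1 and of Kcnq1 in their shared 0.889% of Kcnq1ot1 exons may not have been told apart.

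Transcripts related to these RNAs by function or location showed a mixture of slopes. Of 16 paraspeckle proteins, which bind Neat1, 10 rose with the share and 1 fell (limma, adjusted p under 0.05), with a median slope of 0.16 against -0.02 for all genes, from Hnrnph3 at 0.63 to Rbm14 at -0.28. Of 13 nuclear speckle proteins 9 rose and 1 fell, with a median of 0.19, from Pnn at 0.67 to Srsf3 at -0.07. Of 16 transcripts known for introns detained in the nucleus 9 rose and 2 fell, with a median of 0.14, from Arglu1 at 0.42 to Ccnl2 at -0.31. With the nuclear scaling 8, 7 and 7 of these rose and 5, 4 and 4 fell, so fewer rose and more fell in each of the 3 lists under that scaling. Of 11 other nuclear long non-coding RNAs 2 rose and 1 fell (median -0.02, slopes from 0.25 to -1.40), and under the nuclear scaling 0 rose and 2 fell. Of 11 cytoplasmic long non-coding RNAs 4 rose and 3 fell (median -0.01), from Snhg6 at 0.52 to Zfas1 at -0.26, and under the nuclear scaling 3 rose and 5 fell. Of all genes 29.6% rose and 31.5% fell, and 19.2 and 43.8% did so under the nuclear scaling. Both lists of long non-coding RNAs had medians close to that of all genes. The 6 RNAs had a median of 0.35, from Neat1 at -0.17 to Kcnq1ot1 at 0.99, a range that overlaps with those of both lists. In the 3 comparisons of genotype 0 genes of these lists passed in limma.

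**Figure D5:**
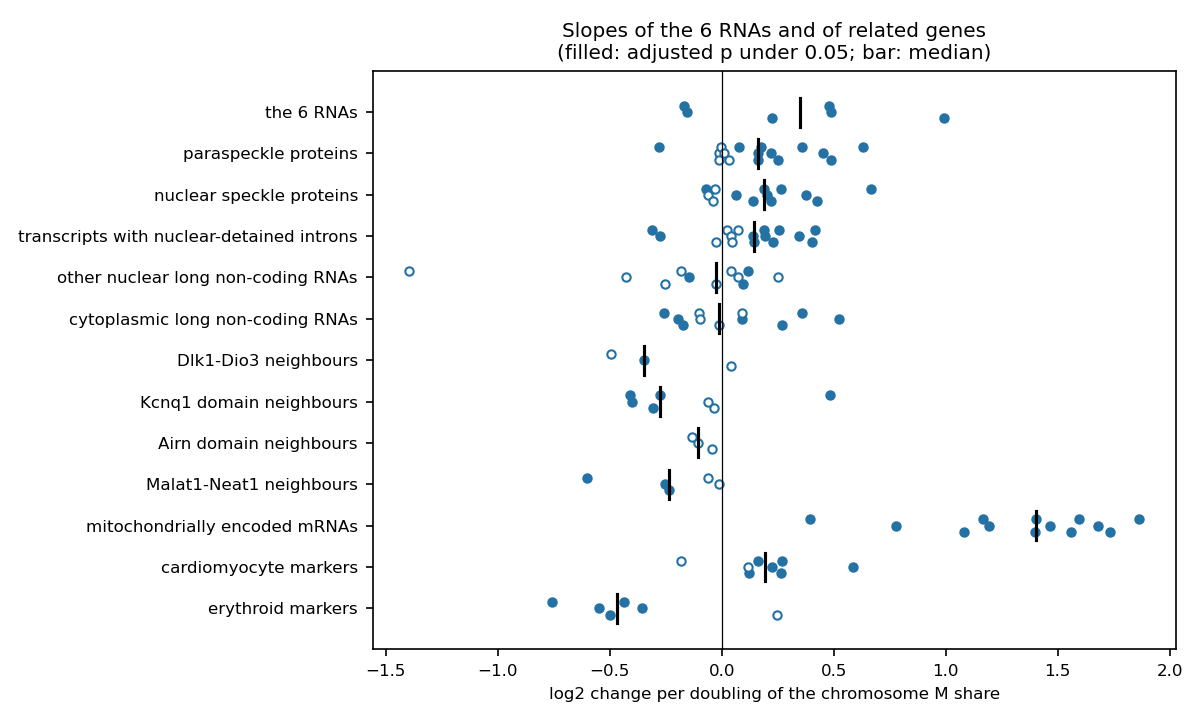
Slope on the chromosome M share, in log2 units per doubling (x axis), of the 6 RNAs and of the genes in each related list (y axis), with filled points where the adjusted p is under 0.05 and a bar at the median of each list. The 6 RNAs spread from -0.17 to 0.99, and the lists of other nuclear and of cytoplasmic long non-coding RNAs centre near 0. In the cytoplasmic list Snhg6, at 0.52, lies as far right as Malat1 and Airn, whereas the highest slope of the other nuclear list is 0.25.

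Among 48 cell type markers tested, 26 had a share slope past the threshold (54.2%), beside 61.1% of all genes, a difference that was not tested. Of 8 cardiomyocyte markers 6 rose and 0 fell, led by Tnnt2 at 0.59 ± 0.04, and their summed value was 228120 to 355142 in the 13 libraries and 306382 to 448690 in the 7. Of 6 erythroid markers 0 rose and 5 fell, led by Hbb-bt at -0.76 ± 0.17, with sums of 38655 to 165909 and 23101 to 108800. With the nuclear scaling 3 of the cardiomyocyte markers rose and 1 fell, and the counts for erythroid markers did not change. The erythroid calls were 0 with depth in the fit (median slope -0.11 against -0.47), 0 within the Ts1Rhr cohort, 0 without group terms and 2 without a filter on low values. Of the cardiomyocyte markers 4 rose with depth in the fit and 4 within the Ts1Rhr cohort. Endothelial markers rose in 4 and fell in 1 of 6, epicardial markers in 1 and 2 of 5, mesenchymal markers in 2 and 2 of 6 and macrophage markers in 1 and 2 of 5. Markers of lung and foregut (4 tested), liver (2) and nerve (6) gave 0 calls, with sums for lung and foregut of 4.57 to 461 and 5.99 to 408. No marker was at 0 throughout a set. The part of cell composition in the slopes of Malat1, Kcnq1ot1 and Airn was not tested. All 13 messenger RNAs of chromosome M rose, with a median of 1.40, but they make up the share itself.

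The genes whose pattern was most like that of each RNA were sought by Pearson's r of group-centred log2 values over the 20 libraries among 15348 genes, as a description without a test, since many genes move with the share. For Airn these were Brd7, a bromodomain protein (r = 0.99), mt-Cytb, the cytochrome b of chromosome M (0.99), and Ndufa12, a subunit of respiratory complex I (0.99). For Malat1 they were Gm14410 (0.94), the long non-coding RNA 1110002L01Rik (0.94) and Slfn9 (0.93). For Kcnq1ot1 they were Med8, a subunit of the Mediator complex, Senp1, a SUMO protease, and Usp42, a deubiquitinase (0.91 each). Rian was closest to Bin1, Mycl and S1pr3 (0.95 each), Mirg to Cd248, Spire1 and Meis1 (0.90 each) and Neat1 to Lfng (0.85), Sema4a (0.84) and E4f1 (0.84). None of the 6 RNAs was among the 3 genes closest to another.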

How the data were processed

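RNA was extracted from whole E13.5 hearts (RNeasy Mini) and sequenced on an Illumina HiSeq instrument from KAPA mRNA HyperPrep libraries. The submitters' processing notes name Trimmomatic 0.36, STAR 2.5.2a, RSEM 1.2.31, DESeq, DESeq2 and the build GRCm38. The authors deposited a signal table: gene counts divided by the size factor of each library. Values were whole multiples of 1 unit per library (100% at a tolerance of 1e-06), so reads and depth were recovered by division, and DESeq2 1.42.0 and edgeR 4.0.16 could be run on them as alternatives. Symbols and exon lengths came from GENCODE vM39 (91.3% of identifiers matched).

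Differences and slopes were fitted with limma 3.58.1 (trend, robust) on log2(value + 1) over genes that reached a value of 10 in 5 or more libraries, called at a Benjamini-Hochberg adjusted p of 0.05. A slope is the log2 change per doubling of the share or depth, with group terms. Genotypes were compared within cohorts. Correlations used log2 values and permutation tests (exact for 7 libraries or fewer, otherwise 100000 resamples). Fits were tested on simulated data with the same dispersion for every gene, where slopes gave false calls when genes with low counts were included. The part of shallow libraries in these false calls was not tested. The share of genes called is therefore read with care, and an alternative over genes with a mean of at least 100 was added after seeing the data. So were the fits within the sets of 13 and 7 libraries, cut at 10%, and the cohort difference in slope. The other alternatives were planned: pseudocount, filter, scaling, covariates, array weights and leaving out libraries.

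The RNAs and gene lists were chosen with earlier results of these data known. Genes named are the 6 RNAs and, where a result turns on them, list genes called between genotypes, the highest and the lowest gene of a list and the 3 genes most like each RNA; Igf2r, Kcnq1 and Dlk1 were named after their values were seen. Replicate numbers follow accession order. Nothing in the labels says that hearts of a group came from separate litters, so p-values measure the spread between these samples.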

Additional observations from a re-analysis of the deposited data

Results flagged for a closer look

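In 6 of the 32 groups of 5 values tested, 1 library stood apart from the other 4 by more than Dixon's 95% limit. Chance alone gives about 1 in 20 independent groups, but these groups are not independent. The RNAs, the share and the depth were measured on the same libraries, so the count cannot be judged against that rate. All 6 flagged values belong to replicate 5 of the Dp3Tyb cohort, in WT or in Dp3Tyb. These are the 2 libraries of that cohort with over 10% of reads from chromosome M. The share itself stood apart in WT replicate 5, at 19.5% against 4.85 to 5.42% in the other 4 WT hearts, and in Dp3Tyb replicate 5, at 15.5% against 5.23 to 6.15%. Malat1 stood apart in Dp3Tyb replicate 5, at 12762 against 6326 to 6832. Kcnq1ot1 stood apart in WT replicate 5, at 860.3 against 352 to 391. Airn stood apart in both, at 846 against 425 to 489.6 in WT and at 685 against 383 to 436 in Dp3Tyb. Neat1, Rian and Mirg had no such library in any group. The cause of the high share in these 2 hearts was not tested.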

How the results depend on the processing

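Of the values for single RNAs under the alternatives that keep all libraries or set aside whole groups of them, 296 kept their direction and side of the threshold, 32 lost and 3 gained a call, 20 reversed and 1 moved; 81 counts stayed within 1.5 times their first value and 40 did not. No paired analysis was possible because the replicate numbers follow accession order and the labels give none that groups share; neighbouring accessions were not taken as pairs. Genes called for Dp3Tyb (8) became 34 with DESeq2, 57 with array weights, 54 with the chromosome M share in the fit, 4 without a filter and 30 without the 7 libraries over 10%. For Ts1Rhr (4) they became 22, 16 and 25 with the first 3 and 0 without the 7 libraries (limma, 496 genes at an unadjusted p under 0.05). For the difference between strains (2) they became 0 without a filter and 0 with the nuclear scaling (650 and 219 genes at an unadjusted p under 0.05). The number of these 6 RNAs called was 0 throughout. Leaving out single libraries gave 2 to 13 genes for Dp3Tyb, 1 to 6 for Ts1Rhr and 0 to 3 for the difference, and without WT replicate 5 Dp3Tyb gave 13.

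Genes with a share slope (9378) became 3 in the 13 libraries, 3853 in the 7, 5634 with depth in the fit and 5640 in the Ts1Rhr cohort, and the RNAs called (6) became 0, 1, 3 and 3. Genes with a depth slope (7983) became 0, 2564, 0 and 1084 in the same order, and the RNAs called (4) became 0, 2, 0 and 1. Leaving out single libraries gave 5 to 6 RNAs for the share and 4229 to 8409 genes for depth, lowest without WT replicate 5 of the Dp3Tyb cohort. Fewer samples enter the fits within sets and cohorts. Relations of the RNAs with share or depth past the threshold by r (12 of 12 over all libraries, 6 by rho) became 8 (1 by rho) without the 2 farthest libraries, 5 (0 by rho) in the Dp3Tyb cohort, 7 (5) in the Ts1Rhr cohort, 0 (0) in the 13 libraries and 1 (0) in the 7, and 0 (0) in both without the 2 farthest, where the 5 libraries left of the 7 are too few to pass. Pairs of RNAs (7 of 15 by r, 5 by rho) became 3 (3 by rho) without the 2 farthest libraries, 4 (0) and 3 (3) in the Dp3Tyb and Ts1Rhr cohorts, 1 (1) in the 13 libraries and 0 (0) in the 7, and 1 (1) and 0 (0) without the 2 farthest.

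None of the reversed values was called. For Dp3Tyb, Neat1 became 0.00085 with array weights, 0.0062 with the nuclear scaling and 0.036 without the 7 libraries. For Ts1Rhr, Neat1 became -0.014 and Mirg 0.0092 with the share in the fit, and Mirg 0.12 without the 7 libraries. The difference between strains became 0.0019 for Neat1 and -0.054 for Airn with the share in the fit and -0.038 for Mirg without the 7 libraries. In the 13 libraries the share slope of Mirg became -0.61, and the depth slopes became 0.22 for Malat1, 0.065 for Kcnq1ot1, 0.049 for Airn and -0.40 for Rian. With share and depth together the depth slopes became 0.27 for Malat1, -0.024 for Neat1, 0.16 for Kcnq1ot1 and -0.10 for Rian. The cohort difference in share slope became -0.014 for Neat1 with the nuclear scaling and 0.0015 for Airn with DESeq2. Leaving out single libraries moved the Dp3Tyb difference over -0.30 to 0.010 for Malat1, -0.077 to 0.068 for Neat1, -0.33 to 0.10 for Kcnq1ot1, -0.31 to 0.017 for Airn and -0.0030 to 0.25 for Mirg, and the Ts1Rhr difference over -0.027 to 0.12 for Neat1 and -0.16 to 0.015 for Mirg. The difference between strains moved over -0.13 to 0.027 for Neat1 and -0.023 to 0.30 for Airn, and the cohort difference in slope over -0.23 to 0.11 for Malat1, -0.12 to 0.10 for Neat1 and -0.021 to 0.027 for Airn. Beyond the construction of each fit, the cause of these changes was not tested. Mirg, with 69 reads in its shallowest library, is the RNA whose values depth limits most.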

Other observations

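The labels split the Ts1Rhr hearts into 2 with and 3 without heart defects, a split outside the comparisons above. The study describes Ts1Rhr embryos as free of such defects, so what this label refers to is uncertain. The 2 hearts with the label had normalised values of 12296 and 9359 for Malat1, 1222 and 747 for Kcnq1ot1, 653 and 677 for Airn, 309 and 305 for Neat1, 4261 and 4839 for Rian and 166 and 242 for Mirg. The 3 without had 5655, 7057 and 6459.7 for Malat1, 266, 339 and 330.4 for Kcnq1ot1, 467, 455 and 434 for Airn, 353, 329.9 and 400.5 for Neat1, 4400.3, 5143 and 5956 for Rian and 151, 189.9 and 233 for Mirg. Malat1, Kcnq1ot1 and Airn did not overlap between them and were higher in the 2 hearts with the label, and Neat1 did not overlap and was lower. The share of all genes without overlap was not counted for this split, and groups of 2 and 3 can separate by chance alone. The chromosome M share was 11.6 and 13.1% in the 2 and 5.50 to 6.12% in the 3, so label and share cannot be told apart. In Dp3Tyb, where all 5 hearts carry the label, the 4 with shares of 5.23 to 6.15% had Malat1 at 6326 to 6832. No test was run on this split.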
